A study of Mus musculus with 6 samples.

Results

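The enteroendocrine lineage transcription factors are the nuclear proteins that turn an epithelial progenitor of the gut into a hormone-secreting cell. The 9 members, Neurog3, Insm1, Neurod1, Pax4, Pax6, Isl1, Nkx2-2, Fev and Rfx6, were taken by gene symbol, and each had 1 row among the 21534 rows of the count table. They were measured in intestinal organoids, closed epithelial cultures, here derived from ileum of C57Bl/6 wild-type mice of an age that the labels leave out. All organoids were first kept for 96 hours in growth medium with 10 µM CHIR99021, which blocks the kinase GSK3 and so turns on Wnt signalling, and thus every library carries that exposure. Of the 6 polyA RNA libraries, 3 came from organoids then given 10 µM all-trans retinoic acid, a hormone made from vitamin A, for 24 hours, and 3 from organoids given vehicle (DMSO) for 24 hours. Nothing in the labels ties the 3 libraries of a group to different mice or dishes, and p-values therefore speak only to the spread between libraries, which may be technical.

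Enteroendocrine cells arise from secretory progenitors of the crypt. In progenitors that express the Notch ligand Dll1, the Atoh1 protein opens the secretory programme, and a short pulse of Neurog3 then commits some cells to the endocrine fate, while Notch signalling through Hes1 represses both genes in neighbouring cells. Neurog3 switches on Insm1, Neurod1 and Nkx2-2, and the other members act later or in part of the lineage, where they set which hormone a cell makes. Retinoic acid acts through nuclear receptors that bind pairs of a short core motif in DNA.

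Promoters of a called and an uncalled basic helix-loop-helix member are shown to let their sequence be read beside the values. RefSeq promoter windows (250 bases before to 50 bases after the transcription start, build GRCm38.p6) were found for 7 of the 9 members, 8 windows in all. No window was found for Pax4 or for the called member Insm1, so the motif counts below leave both out. The Neurog3 window is chr10:62132840-62133139 on the plus strand, and the Neurod1 window is chr2:79456587-79456886 on the minus strand. Capitals mark matches to the E-box CANNTG, the hexamer that basic helix-loop-helix factors such as Neurog3, Neurod1 and Atoh1 bind, which reads as the same pattern on both strands.
Neurog3: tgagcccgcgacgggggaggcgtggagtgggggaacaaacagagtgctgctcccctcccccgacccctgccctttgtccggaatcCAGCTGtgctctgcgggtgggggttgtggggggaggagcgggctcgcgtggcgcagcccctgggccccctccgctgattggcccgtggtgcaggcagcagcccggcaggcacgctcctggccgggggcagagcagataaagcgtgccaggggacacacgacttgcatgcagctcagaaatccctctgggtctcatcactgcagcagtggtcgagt
Neurod1: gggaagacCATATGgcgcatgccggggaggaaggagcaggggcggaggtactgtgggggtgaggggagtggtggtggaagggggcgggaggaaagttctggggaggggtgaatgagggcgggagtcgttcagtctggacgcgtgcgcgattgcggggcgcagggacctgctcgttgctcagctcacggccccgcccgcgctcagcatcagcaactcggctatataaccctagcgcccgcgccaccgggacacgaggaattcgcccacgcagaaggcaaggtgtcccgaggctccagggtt
The Neurog3 window held 1 E-box, starting 165 bases before the transcription start, and the Neurod1 window held 1, starting 242 bases before it. At least 1 E-box was found in 6 of the 8 windows, against 72.3% of the 32851 promoter windows in the RefSeq table. The receptor core motif AGGTCA, searched on both strands, was in 0 of the 8 windows and in 16.3% of all windows. These matches describe the letters in the windows and no more.

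Total counts per library ran from 15080190 to 21833846 with retinoic acid and from 14919144 to 16927696 with vehicle. Levels are given as counts per 1000000 of the scaled library size (CPM). Epithelial markers were high, with a summed level over 8 genes of 10746 to 11678 CPM with retinoic acid and 10922 to 11601 CPM with vehicle. The labels call the cells intestinal stem cells, and the stem cell receptor gene Lgr5 was called lower, at 81.7 CPM with retinoic acid and 127 CPM with vehicle, with no overlap (log2 fold change −0.64, SE 0.10, adjusted p = 0.000933 by edgeR). The part of this stem cell marker's difference in the lower levels of Neurog3, Insm1 and the secretory choice genes given below was not tested. The endocrine granule gene Chgb averaged 734 ± 91.6 CPM with retinoic acid and 744 ± 128 CPM with vehicle (SD, n = 3 each), so endocrine transcripts were present in both groups. On the second principal component library 3 of each group lay apart from the other 4 libraries.

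Neurog3 and Insm1 were called lower with retinoic acid, and no other tested member passed the test. The call of Insm1 held whichever library was left out, and that of Neurog3 was lost whichever was. Neurog3 stood at 0.760 of its vehicle level and Insm1 at 0.714, while Neurod1, which was about as abundant, stood at 0.956. These folds were not tested against each other. Of the 9 members 8 had enough counts to be tested, and 2 of these were called lower and 0 higher (edgeR's quasi-likelihood test, Benjamini-Hochberg adjustment over all tested genes, threshold 0.05), against 4.09% of the 13700 tested genes called lower, 5.37% called higher and 9.46% called in either direction. The fitted log2 fold change, retinoic acid over vehicle, was below 0 for 8 of 8 tested members, with a median of −0.23, beside 52.0% of all tested genes and a median of −0.01. That count was 6 when retinoic acid library 3 was left out, and 7 when vehicle library 1, vehicle library 3 or library 3 of both groups was. For Neurod1, Fev and Rfx6 the log2 fold change was smaller in size than its SE, and the members were not tested as a set. In RNA of whole organoids a smaller number of cells of a type and less RNA per cell cannot be told apart.

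**Figure D1:**
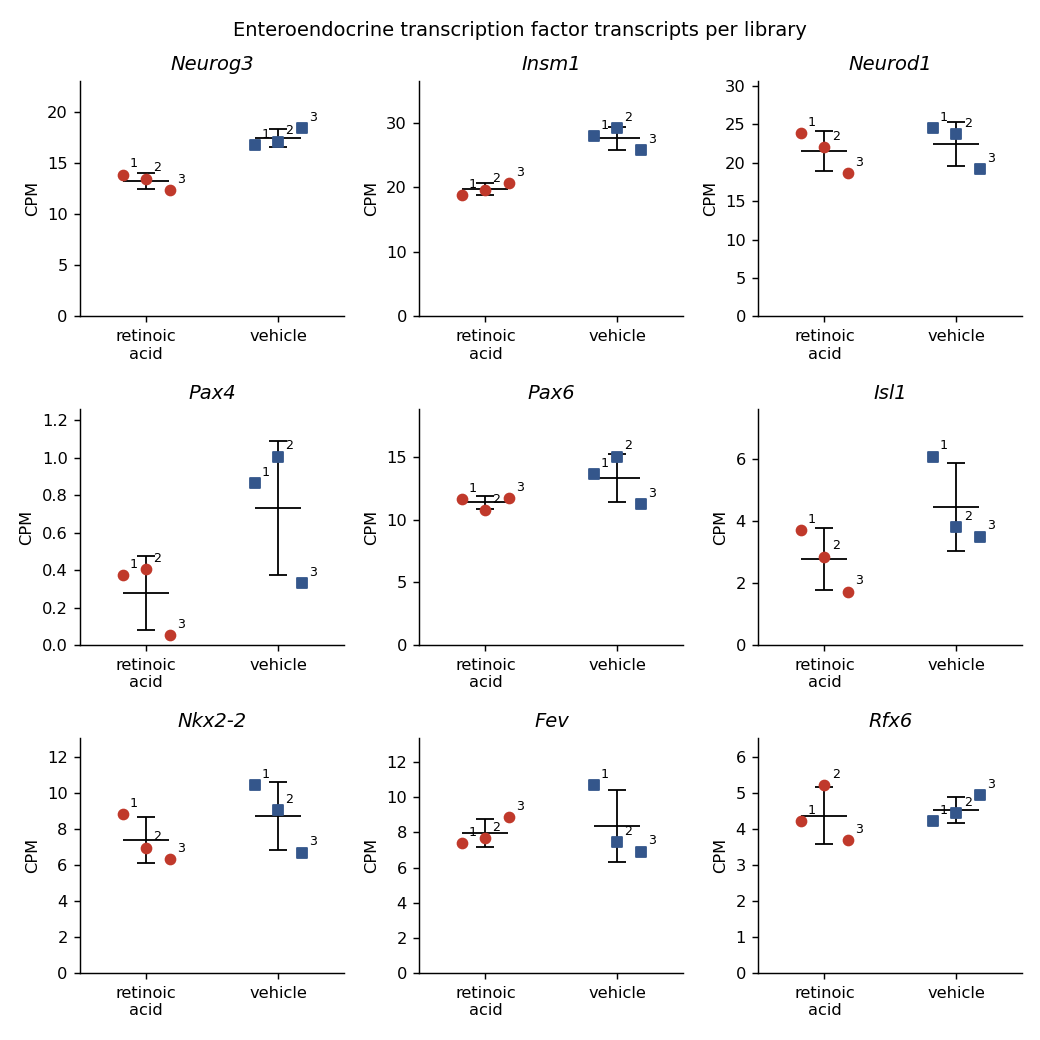
Level of each of the 9 members in CPM (vertical axes, each starting at 0) in the 3 retinoic acid libraries (red circles) and the 3 vehicle libraries (blue squares), numbered by library, with the mean and SD in black. Neurog3 and Insm1 are the members whose retinoic acid libraries all lie under the vehicle libraries.

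Neurog3, the basic helix-loop-helix factor that every enteroendocrine cell of the mouse intestine needs (ENSMUSG00000044312, mm10 chr10:62133090-62134763, plus strand), had 13.9, 13.5 and 12.4 CPM in retinoic acid libraries 1, 2 and 3, and 16.8, 17.1 and 18.4 CPM in vehicle libraries 1, 2 and 3. The groups did not overlap, and within each group the spread was small. Its log2 fold change was −0.40 (SE 0.11, 95% interval −0.63 to −0.16, adjusted p = 0.0353 by edgeR), from 740 counts over the retinoic acid libraries and 859 over the vehicle libraries. The call was lost whichever library was left out (adjusted p 0.0677 to 0.108 in edgeR, log2 fold change −0.43 to −0.35), and without library 3 of both groups (−0.31, adjusted p = 0.150). The authors' deposited table gives Neurog3 a log2 fold change of −0.39 and an FDR of 0.104. The Neurog3 row lies inside the span of Fam241b, which is on the other strand and averaged 43.6 CPM with retinoic acid and 38.7 CPM with vehicle (log2 fold change 0.17, adjusted p = 0.231 by edgeR). No source used here says whether counting used strand, so reads of these genes may not be fully separated. The same limit holds for Pax6 with Elp4 (201 to 278 counts per library) and Nkx2-2 with Nkx2-2os (20 to 48), both on the other strand. Neurod1 overlaps Cerkl (10 to 22 counts per library) on its own strand.

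Insm1, a zinc finger repressor that acts just after Neurog3 in differentiating endocrine cells (ENSMUSG00000068154, mm10 chr2:146221921-146225016, plus strand), had 18.8, 19.7 and 20.7 CPM in retinoic acid libraries 1, 2 and 3, and 27.9, 29.2 and 25.7 CPM in vehicle libraries 1, 2 and 3. The lowest vehicle library stood well above every retinoic acid library. The log2 fold change of Insm1 was −0.49 (SE 0.09, 95% interval −0.69 to −0.29, adjusted p = 0.00407 by edgeR). Insm1 stayed called under each of the 13 alternative settings, with log2 fold changes of −0.57 to −0.44 and adjusted p up to 0.0295. The authors' deposited table gives it −0.48 and an FDR of 0.00258. All retinoic acid libraries lay under all vehicle libraries for Neurog3 and Insm1 alone among the 9, where 12.6% of all tested genes showed this (25.5% in either direction).

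Neurod1, a second basic helix-loop-helix factor that follows Neurog3 and persists in maturing cells (ENSMUSG00000034701, mm10 chr2:79452521-79456751, minus strand), had 23.9, 22.03 and 18.6 CPM in retinoic acid libraries 1, 2 and 3, and 24.5, 23.7 and 19.2 CPM in vehicle libraries 1, 2 and 3. The groups overlapped almost entirely, and library 3 was the lowest in each. Its log2 fold change of −0.07 (SE 0.12, adjusted p = 0.819 by edgeR) had a 95% interval of −0.32 to 0.19, which holds folds from 0.800 to 1.14. Nkx2-2, a homeodomain factor needed for most enteroendocrine types (ENSMUSG00000027434, mm10 chr2:147177546-147194243, minus strand), had 8.86, 6.98 and 6.37 CPM in retinoic acid libraries 1, 2 and 3, and 10.5, 9.06 and 6.71 CPM in vehicle libraries 1, 2 and 3. Again library 3 was lowest in each group, and the groups overlapped. Its log2 fold change was −0.24 (SE 0.18, 95% interval −0.63 to 0.15, adjusted p = 0.516 by edgeR).

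Pax6, a paired homeodomain factor that binds the glucagon gene promoter (ENSMUSG00000027168, mm10 chr2:105668896-105703160, plus strand), had 11.7, 10.8 and 11.7 CPM in retinoic acid libraries 1, 2 and 3, and 13.6, 15.04 and 11.3 CPM in vehicle libraries 1, 2 and 3. Vehicle library 3 fell among the retinoic acid libraries, and the other vehicle libraries lay above them. The log2 fold change was −0.22 (SE 0.13, 95% interval −0.51 to 0.06, adjusted p = 0.365 by edgeR). Pax4, its relative that in mice is needed for part of the serotonin and somatostatin cells (ENSMUSG00000029706, mm10 chr6:28442334-28449353, minus strand), was close to undetected, with 8, 6 and 1 counts in retinoic acid libraries 1, 2 and 3, and 15, 17 and 5 counts in vehicle libraries 1, 2 and 3. Pax4 failed the filter on low counts and was not tested. With no such filter its log2 fold change was −1.41 (SE 0.69, adjusted p = 0.267 by edgeR), and the groups overlapped in CPM.

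Isl1, a LIM homeodomain factor of several hormone cell types (ENSMUSG00000042258, mm10 chr13:116298281-116309688, minus strand), had 3.70, 2.85 and 1.72 CPM in retinoic acid libraries 1, 2 and 3, and 6.07, 3.79 and 3.49 CPM in vehicle libraries 1, 2 and 3. It had the widest relative spread within a group among the tested members, and retinoic acid library 1 lay above the lowest vehicle library. Its log2 fold change of −0.69 (SE 0.29, 95% interval −1.32 to −0.06) was the most negative among tested members. It was not called (adjusted p = 0.185 by edgeR) and moved between −0.99 and −0.40 with 1 library left out in turn. Isl1 was called with no filter on low counts (adjusted p = 0.0459 by edgeR) and with replicate number added as a block (adjusted p = 0.0356 by edgeR).

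Fev, an ETS factor best known from serotonin neurons and also made in endocrine progenitors (ENSMUSG00000055197, mm10 chr1:74881509-74885419, minus strand), had 7.41, 7.66 and 8.89 CPM in retinoic acid libraries 1, 2 and 3, and 10.7, 7.46 and 6.91 CPM in vehicle libraries 1, 2 and 3. Vehicle library 1 stood apart, and without it the log2 fold change of −0.07 (SE 0.18, adjusted p = 0.877 by edgeR) became 0.15. Rfx6, a winged-helix factor that in mice is needed for enteroendocrine differentiation (ENSMUSG00000019900, mm10 chr10:51677756-51730429, plus strand), had 4.22, 5.22 and 3.69 CPM in retinoic acid libraries 1, 2 and 3, and 4.22, 4.44 and 4.94 CPM in vehicle libraries 1, 2 and 3. The vehicle libraries lay within the range of the retinoic acid libraries. Its log2 fold change was −0.06 (SE 0.20, 95% interval −0.49 to 0.37, adjusted p = 0.908 by edgeR), and it was 0.05 without retinoic acid library 3.

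**Figure D2:**
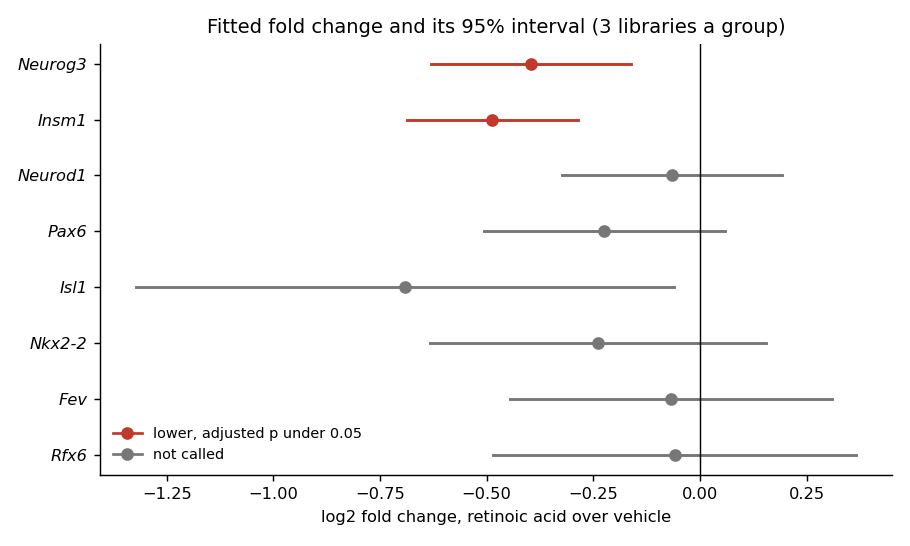
Fitted log2 fold change, retinoic acid over vehicle (horizontal axis), of the 8 tested members, with 95% intervals from edgeR's quasi-likelihood test. The points of Neurog3 (−0.40) and Insm1 (−0.49) are called, and the interval of Isl1 is the widest.

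**Figure D3:**
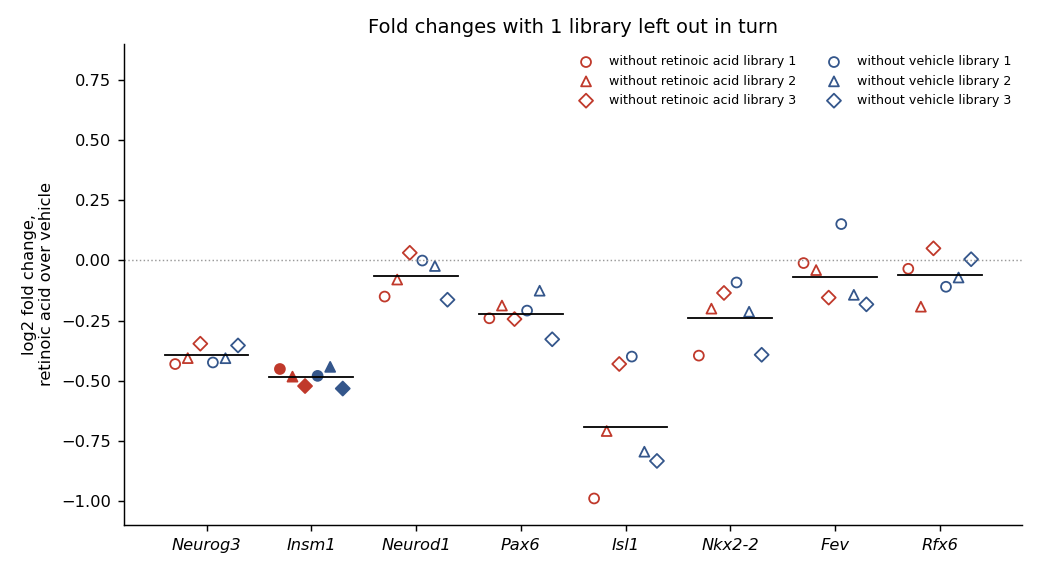
Log2 fold change of each tested member (vertical axis) with all 6 libraries (black lines) and with 1 library left out in turn (red, a retinoic acid library left out; blue, a vehicle library left out; filled where the adjusted p was under 0.05). Filled symbols are seen for Insm1 in 6 of 6 cases and for the other members in 0.

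Levels between genes were compared per kilobase of exon (CPM per kb, on the union of exons in GENCODE M21). In the vehicle libraries Neurog3 was the highest, at 10.4 ± 0.524 CPM per kb, before Insm1 at 8.91 ± 0.565, Neurod1 at 8.24 ± 1.05, Fev at 5.17 ± 1.26 and Nkx2-2 at 3.04 ± 0.659 (SD, n = 3 each). The ranges of Insm1 and Neurod1 overlapped, and those of Neurog3 and Insm1 did not. Pax6, Rfx6 and Isl1 followed at 1.14, 1.13 and 1.12 CPM per kb, with overlapping ranges, and Pax4 came last at 0.508. With retinoic acid Neurog3 and Neurod1 were level, at 7.91 ± 0.464 and 7.89 ± 0.977 CPM per kb, and Insm1, at 6.36 ± 0.295, came next, with no library reaching the lowest of Neurod1. The union of exons of Pax6 is 11.7 kb, the longest of the 9, and its level on another length was not computed.

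Counts of a pair of genes in the same library give a ratio that no scaling of libraries can move. The ratios below were chosen after the values were seen, with numerators already known not to overlap between the groups, so they are a description with no test. Neurog3 counts over Neurod1 counts were 0.580, 0.612 and 0.664 in retinoic acid libraries 1, 2 and 3, and 0.684, 0.721 and 0.959 in vehicle libraries 1, 2 and 3. Insm1 over Neurod1 was 0.788, 0.892 and 1.11 with retinoic acid, and 1.14, 1.23 and 1.34 with vehicle. In both ratios every retinoic acid library lay under every vehicle library. Over Chga, the chromogranin gene that marks endocrine granules, Neurog3 counts stood at 0.153 ± 0.00252 with retinoic acid and 0.195 ± 0.0522 with vehicle, and Insm1 counts at 0.228 ± 0.0241 and 0.305 ± 0.0461 (SD, n = 3 each). Here too the groups did not overlap, though Neurog3 over Chga in retinoic acid library 1 (0.155) and in vehicle library 2 (0.155) were nearly equal.

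**Figure D4:**
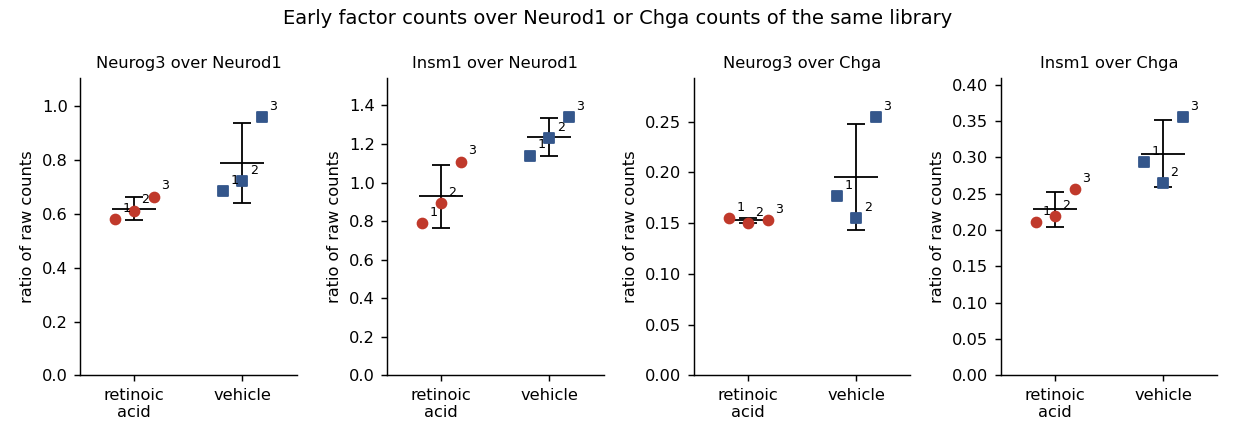
Ratio of raw counts in the same library (vertical axes, each starting at 0) for Neurog3 or Insm1 over Neurod1 or Chga, in retinoic acid libraries (red circles) and vehicle libraries (blue squares) numbered by library, with mean and SD in black. In each panel the 3 retinoic acid libraries lie under the 3 vehicle libraries, by a hair for Neurog3 over Chga.

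The summed level of the 9 members was 92.9, 89.1 and 84.1 CPM in retinoic acid libraries 1, 2 and 3, and 115, 111 and 97.0 CPM in vehicle libraries 1, 2 and 3. Without Neurog3 and Insm1 the sums were 60.1, 55.9 and 51.1 CPM with retinoic acid and 70.5, 64.6 and 52.8 CPM with vehicle. The groups then overlapped through vehicle library 3 alone, as vehicle libraries 1 and 2 lay above every retinoic acid library. These 2 genes were taken out after their values were seen, so the sums are a description only. Vehicle library 3 was the lowest vehicle library for 7 of 9 members, and the exceptions were Neurog3 and Rfx6, which were both highest there. Among retinoic acid libraries, library 3 was lowest for 6 of 9, Neurog3 and Rfx6 included. For comparison, vehicle library 3 was the lowest vehicle library for 10 of 11 tested hormone genes, 17 of 19 of the secretory apparatus, 8 of 20 other endocrine factors, 8 of 18 secretory choice genes and 35.9% of all tested genes. Retinoic acid library 3 was the lowest of its group for 7 of 11, 11 of 19, 7 of 20 and 5 of 18 genes of the same lists and for 38.2% of all tested genes.

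Over the 6 libraries, with log2 CPM centred on each gene's mean, the members closest to each other were Neurod1 and Nkx2-2 and then Neurog3 and Insm1, each with a root mean square difference of 0.13. In a search of 12968 tested genes whose mean reached 1 CPM, the 3 closest to Neurog3 were Mgme1, Pak6 and Slc25a42 (0.04, 0.04 and 0.05), and the 3 closest to Insm1 were Xrcc2, Hdac7 and Ttyh3 (0.03, 0.04 and 0.04), where the median gene differed by 0.24 and 0.28. These likenesses rest on 6 libraries in 2 groups, and a shared difference between the groups counts towards them. Within the groups Neurog3 and Insm1 ran in different orders. Library 3 was the lowest retinoic acid library and the highest vehicle library for Neurog3. For Insm1 it was the highest retinoic acid library and the lowest vehicle library. By position, 4 of the 9 members (Insm1, Neurod1, Pax6 and Nkx2-2) lie on mouse chromosome 2.

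Of 18 tested genes that act before or beside Neurog3 in secretory fate choice, 7 were called lower with retinoic acid and 0 higher. Over all tested genes 4.09% were called lower and 5.37% higher. The median log2 fold change of the list was −0.22. This list and those of the next paragraphs were drawn up with earlier results of these data known. Dll1, the Notch ligand shown by secretory progenitors, averaged 13.4 ± 3.21 CPM with retinoic acid and 20.5 ± 0.929 CPM with vehicle (SD, n = 3 each). Each retinoic acid library lay under each vehicle library (log2 fold change −0.61, SE 0.14, adjusted p = 0.0146 by edgeR). Cdkn1c, the gene of the cell cycle inhibitor p57, averaged 3.46 ± 0.505 CPM with retinoic acid and 6.67 ± 0.672 CPM with vehicle (SD, n = 3 each), a log2 fold change of −0.95 (SE 0.19). The receptor gene Notch1 (−0.64), the ligand gene Jag1 (−0.30), the pathway's feedback gene Nrarp (−0.31), Hes6, a relative of Hes1 that opposes it (−0.24), and Spdef, a factor of goblet and Paneth cells (−0.30), made up the 7. Atoh1, which opens the secretory programme, averaged 80.1 ± 3.26 CPM with retinoic acid and 93.1 ± 12.3 CPM with vehicle. It was not called (log2 fold change −0.22, adjusted p = 0.143 by edgeR). Of the 13 alternative settings 2 called Atoh1. These left out vehicle library 3 (adjusted p = 0.0297 by edgeR) or library 3 of both groups (−0.34, adjusted p = 0.00450 by edgeR). Without vehicle library 2 its log2 fold change was −0.12 (adjusted p = 0.511 by edgeR). Hes1, the Notch effector that represses Neurog3, averaged 92.0 ± 5.89 CPM with retinoic acid and 87.1 ± 6.57 CPM with vehicle, with a 95% interval of the log2 fold change of −0.08 to 0.24. Fewer of these genes were called lower without some libraries, with 2 left when retinoic acid library 1 was dropped, 4 when retinoic acid library 2 or vehicle library 1 was, and 3 when vehicle library 2 was. Cdkn1c and Notch1 stayed called whichever library was left out, and Dll1 lost its call without retinoic acid library 1 or 2 or vehicle library 2 (adjusted p up to 0.0801). Spdef, Jag1, Nrarp and Hes6 each lost their call without at least 2 of the libraries taken singly (adjusted p up to 0.203), among them Hes6 without vehicle library 3 (log2 fold change −0.20, adjusted p = 0.135) and Nrarp without retinoic acid library 3 (−0.28, adjusted p = 0.0507).

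Of 20 tested genes of other endocrine transcription factors 2 were called lower and 0 higher, against 4.09% and 5.37% of all tested genes. The median log2 fold change of the list was −0.21. The 2 called lower were Mlxipl and Sox4. Mlxipl, the glucose-sensing factor ChREBP, which is also made in enterocytes, had −0.34 (SE 0.07, adjusted p = 0.00528 by edgeR). Sox4, an SRY-related factor of early secretory cells, had −0.20 (SE 0.06, adjusted p = 0.0445 by edgeR). Sox4 lost its call when retinoic acid library 1 or 2, vehicle library 2 or 3, or library 3 of both groups was left out (adjusted p up to 0.195). The proneural genes Neurog1 and Neurog2 had at most 1 count in any library and were not tested.

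Genes of hormone packaging and release were called both ways, with 2 of 19 tested members higher and 1 lower. Over all tested genes 5.37% were called higher and 4.09% lower. The median log2 fold change of the list was −0.05. Ddc, the decarboxylase that makes serotonin and is also made by enterocytes, averaged 29.5 ± 0.717 CPM with retinoic acid and 21.7 ± 1.05 CPM with vehicle (SD, n = 3 each), a log2 fold change of 0.44 (SE 0.09, adjusted p = 0.00499 by edgeR). Vwa5b2 averaged 4.43 ± 0.427 CPM with retinoic acid and 7.58 ± 1.37 CPM with vehicle, a log2 fold change of −0.78 (SE 0.18, adjusted p = 0.0145 by edgeR). Vwa5b2 was not called without vehicle library 1 or 2 (adjusted p up to 0.0795). Chga averaged 86.7 ± 5.13 CPM with retinoic acid and 92.6 ± 19.0 CPM with vehicle, and neither Chga nor Chgb was called (adjusted p = 0.695 and 0.945 by edgeR). The 95% intervals of their log2 fold changes were −0.34 to 0.15 and −0.25 to 0.21.

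Among hormone genes 2 of 11 tested members were called higher and 0 lower, against 5.37% and 4.09% of all tested genes. Their median log2 fold change was −0.07. Pyy, the gene of the satiety peptide YY, had 16.5, 20.6 and 10.6 CPM in retinoic acid libraries 1, 2 and 3, and 8.44, 7.58 and 5.86 CPM in vehicle libraries 1, 2 and 3. No retinoic acid library reached down to a vehicle library, and the log2 fold change was 1.11 (SE 0.21, adjusted p = 0.00382 by edgeR). Sst, the somatostatin gene, averaged 9.56 ± 1.47 CPM with retinoic acid and 6.03 ± 1.73 CPM with vehicle (0.67, SE 0.20, adjusted p = 0.0462). The groups overlapped slightly for Sst, which was not called without retinoic acid library 1, vehicle library 2 or 3, or library 3 of both groups (adjusted p up to 0.196). Called hormone genes numbered 1 without retinoic acid library 1 or vehicle library 2, and without vehicle library 3, or library 3 of both groups, 1 was higher and 1 lower.

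**Figure D5:**
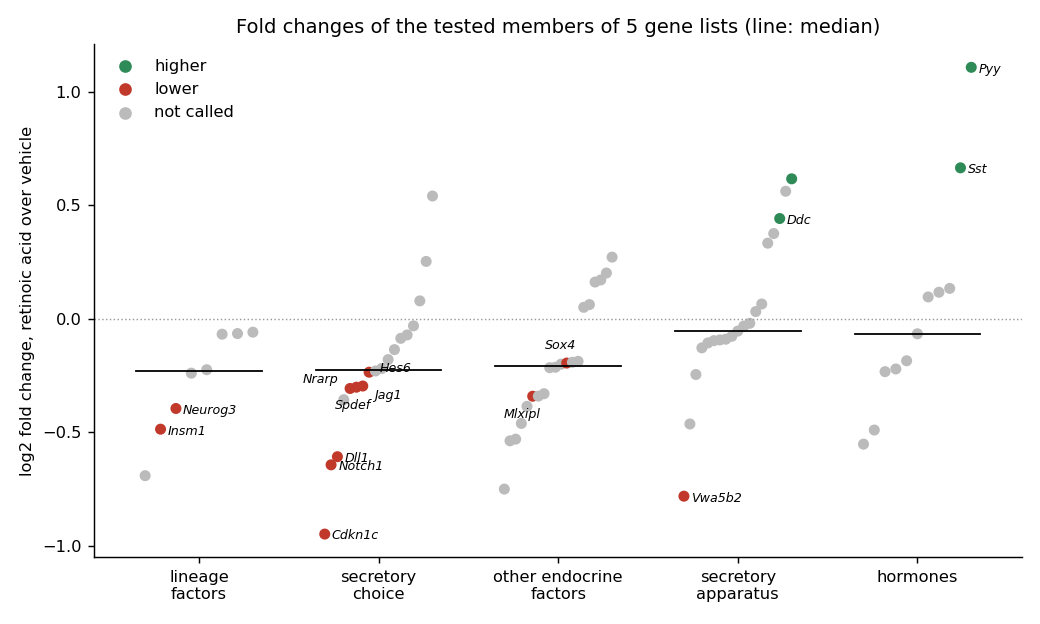
Log2 fold change, retinoic acid over vehicle (vertical axis), of every tested gene in the members' list and in 4 further lists, ordered by value within a list, with called genes coloured, those described in the text named, and the median of each list as a line. Called genes are lower in the first 3 lists and go both ways or higher in the last 2.

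Genes listed as markers of cell types other than epithelium were low beside the epithelial markers. The neuron and glia sum was about as large as the level of Neurog3 (12.4 to 18.4 CPM over all libraries). The 12 neuron and glia genes summed to 13.4 to 15.9 CPM with retinoic acid and 14.0 to 18.2 CPM with vehicle, most of it from Ret, and the glial factor gene Sox10 had 0 counts in the retinoic acid libraries and 6 in the vehicle libraries. The 9 mesenchyme genes in the table, mostly through Pdgfrb, summed to 4.35 to 4.81 CPM with retinoic acid and 5.92 to 6.42 CPM with vehicle. The 9 immune and endothelial genes summed to 10.1 to 14.1 CPM with retinoic acid and 7.22 to 11.4 CPM with vehicle. The largest share of that sum came from Cd68, a lysosomal gene of macrophages, which was the only gene of these 3 lists called, at 7.28 ± 1.42 CPM with retinoic acid and 4.31 ± 0.371 CPM with vehicle (SD, n = 3 each; log2 fold change 0.75, SE 0.19, adjusted p = 0.0216 by edgeR). Itgam, a myeloid integrin gene, averaged 2.79 CPM with retinoic acid and 1.65 CPM with vehicle and was not called (adjusted p = 0.308), and the pan-leukocyte gene Ptprc had 0 counts with retinoic acid and 2 with vehicle. The part of these transcripts in the lower Neurog3 and Insm1 levels was not tested.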

How the data were processed

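PolyA RNA was made into directional libraries, per the labels' protocols. The data are 1 table with the authors' raw read count per gene in 6 libraries and their p-value, FDR and log2 fold change from DESeq, per the file headers. Reads were aligned to mm10, per the submitters' processing notes, and the aligner, annotation and strand setting were not given in the sources used here. Rows were matched to genes by symbol, and 9 of 9 members had an Ensembl ID in the table of gene names.

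The tests used edgeR 4.0.16 under R 4.3.3 (filterByExpr, which left 13700 genes; TMM; glmQLFit and glmQLFTest with treatment as the only term; two-sided; Benjamini-Hochberg over all tested genes, threshold 0.05). The SE is the size of the log2 fold change over the square root of F, and intervals use the test's degrees of freedom. TMM factors ran from 0.978 to 1.02. Library pairs of a group had a chi-square per gene of 4.09 to 11.1, above sampling noise, so none was counted as a repeat. The steps were tested on simulated counts. Likeness used log2 CPM with a prior count of 2.

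The text names all members, the called genes of 4 lists, further fixed genes (Atoh1, Hes1, Dll1, Chga and Chgb), the 3 genes closest to Neurog3 and to Insm1, and marker genes. Fam241b, Ret, Sox10, Pdgfrb, Cd68, Itgam, Ptprc, Neurog1 and Neurog2 were named after their values were seen. Some genes covered by this rule are not reported here. Members were taken by name and not by their values, but members and lists were both chosen with earlier results of these data known. Alternatives were DESeq2 size factors, no filter on low counts, at least 10 counts in every library of a group, DESeq2 1.42.0, limma-voom (limma 3.58.1), a replicate block, leaving out each library, and leaving out library 3 of both groups, the last chosen after seeing the data.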

Additional observations from a re-analysis of the deposited data

How the results depend on the processing

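Over all genes tested, 1296 were called with all libraries, and 732 to 1765 with 1 library left out. The members called numbered 2, and 1 (Insm1) whichever library was left out and without library 3 of both groups, where Neurog3 lost its call. Other endocrine factors numbered 2, and 1 without library 3 of both groups. With 1 library left out, called genes numbered 1 to 2 of hormones, 2 to 3 of the secretory apparatus, 1 to 3 of other endocrine factors and 2 to 7 of secretory choice. Fits that leave libraries out rest on fewer samples, and the cause of each lost call was not tested.

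Replicate numbers are shared by the groups, but the labels do not say that they pair libraries. Same-numbered libraries deviated together with correlations of 0.128, 0.0975 and 0.257 for libraries 1, 2 and 3. Each library correlated best with its own number, which is a hint from the data only. Library 2 fell short of 0.1, the least correlation set for taking libraries as paired. Library 3 of each group also lay apart from the others on the second principal component. With the replicate block 2276 genes were called, and 3 members (Neurog3, Insm1 and Isl1).

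Of 351 values of single genes under 13 alternatives, 303 kept their direction and side of the threshold, 35 lost a call, 4 gained one and 9 changed sign, each of these for a gene that was not called. With 1 library left out in turn the log2 fold change ran from −0.16 to 0.0316 for Neurod1, −0.18 to 0.15 for Fev, −0.19 to 0.0501 for Rfx6, −0.24 to 0.0502 for Chga and −0.15 to 0.0754 for Chgb, and without library 3 of both groups that of Rfx6 was 0.11. DESeq2 size factors, the stricter filter, DESeq2 and limma-voom each called Neurog3 and Insm1 and no other member, and no filter added Isl1. Depth limits Pax4, with 15 counts over the retinoic acid and 37 over the vehicle libraries.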
